A study of Arabidopsis thaliana with 4 samples.

Results

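Nuclear genes for 3 photosystem subunits and 1 subunit of the chloroplast NADH dehydrogenase-like complex were compared between apetala3 mutant and wild-type inflorescences of Arabidopsis thaliana. The genes were PSBW (AT2G30570), PSBY (AT1G67740), PSAN (AT5G64040) and NdhN (AT5G58260). They are 4 of 5415 genes with a probe naming them alone in the platform annotation, and were chosen with earlier results of these data known. The NDH subunits NdhL and NdhS also have such a probe and are given below. PSBW, PSBY and PSAN had 1 probe each and NdhN had 2, so the 4 genes were read by 5 probes. All 5 probes were measured on every array.

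Each of 4 two-channel arrays carried total RNA of apetala3 inflorescences in 1 channel and of wild-type inflorescences in the other. The mutant RNA was in channel 2 on arrays 2 and 4 and in channel 1 on arrays 1 and 3. The sources used here do not give the allele, the genetic background or the age of the plants, nor whether separate plants were used for each array. The spread behind the p-values is therefore that of arrays, possibly technical, and the number of arrays limits the precision. Every value below is a log2 ratio of apetala3 over wild type, so that 1 is a doubling in the mutant, and the levels of single genes in either genotype are not in these data.

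The labels do not name the numerator of the deposited ratios, and no probe named AP3 or its partner PI alone, so the targeted gene could not check the labels. The direction is called likely, because it places genes of the tapetum and pollen wall lower in apetala3. Of 25 such marker genes 6 were tested, and 5 were lower, against 10.1% lower of all genes and probes tested. Means ran from -4.10 to 0.07 over the 6. Of the 5, SHT and SPL were not past the threshold without array 2, nor SPL without array 1 or 3. ATA27, the lowest at -4.10, was at -2.45 and not past it with values at the 100-fold limit kept (limma adjusted p = 0.0861). If the direction were the other way, every sign below would turn. Turned this way, the arrays correlated with each other across gene probes with a Pearson r of 0.62 to 0.82, where genes are not independent replicates.

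Photosystem II splits water and photosystem I reduces ferredoxin, and both combine chloroplast-encoded core proteins with small subunits encoded in the nucleus. The NADH dehydrogenase-like complex, called NDH, passes electrons from ferredoxin back to plastoquinone and takes part in cyclic electron flow around photosystem I. APETALA3 is a MADS-box factor that specifies petals and stamens. In apetala3 flowers, sepals take the place of petals and carpels that of stamens. In such whole inflorescences, more cells of a type and more RNA per cell cannot be told apart.

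Of the 4 genes, NdhN was higher in apetala3, and none of the 3 photosystem genes was called. The test was limma's, with Benjamini-Hochberg adjustment over all 25588 genes and unnamed probes tested and a threshold of 0.05. It called 18.5% of them in either direction and 8.43% of them higher. The direction of calls depended on centring, with 2158 higher and 2579 lower as deposited and 1065 higher and 2905 lower with each array centred on its median. The 4 gene means had a median of 0.37, beside 0.11 over everything tested.

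**Figure D1:**
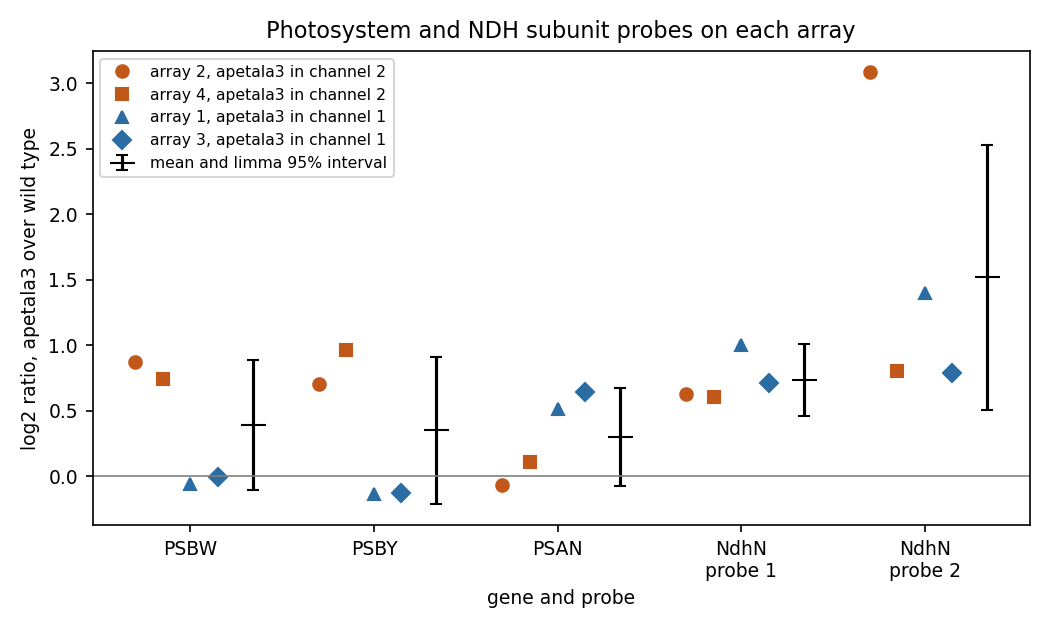
Log2 ratios of apetala3 over wild type (vertical axis) for the 5 probes of the 4 genes, with 1 symbol per array and colours for the channel that held the mutant RNA. Black bars give the mean with limma's 95% interval. PSBW and PSBY lie above 0.7 with the mutant in channel 2 and just below 0 with it in channel 1, PSAN shows the opposite order, and NdhN is above 0 on every array with both probes.

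NdhN encodes a stroma-facing subunit of the NDH complex. Its log2 ratios were 1.86 and 0.71 on arrays 2 and 4, and 1.20 and 0.75 on arrays 1 and 3. All 4 values were above 0, as for 30.5% of genes and probes measured on all arrays, and they lay between percentiles 93.8 and 99.1 of those tested on the same array. The mean was 1.13 ± 0.21 (SE, n = 4 arrays), which is 2.19-fold higher in apetala3, with a 95% interval of 1.51-fold to 3.16-fold and a limma adjusted p of 0.0226. Of all genes and probes tested, 1.16% had a mean as high or higher. Without array 1 the mean was 1.10 and the call was lost (limma adjusted p = 0.0953), and without arrays 2, 3 or 4 the gene remained past the threshold.

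The probes of NdhN gave the same sign and different sizes. The first probe had 0.63 and 0.61 on arrays 2 and 4, and 1.002 and 0.71 on arrays 1 and 3. These values were close together, with a mean of 0.74 ± 0.18 (SD, n = 4 arrays) and a limma adjusted p of 0.0107 when each probe was tested on its own, a test that called 18.3% of probes in either direction and 8.28% of probes higher. The second probe had 3.08 and 0.80 on arrays 2 and 4, and 1.40 and 0.79 on arrays 1 and 3. Its mean was 1.52 ± 1.08 (SD, n = 4 arrays), which missed the threshold (limma adjusted p = 0.0554). The second probe exceeded the first on all 4 arrays, by 2.46 and 0.20 on arrays 2 and 4 and by 0.40 and 0.08 on arrays 1 and 3. That difference averaged 0.78 ± 1.13 (SD), and an exact two-sided sign-flip test gave p = 0.125, the smallest that 4 arrays allow. The 2.19-fold value of the gene thus rests in part on 1 spot of array 2, while the first probe alone was 1.67-fold higher.

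Spots that carry no gene give a background for an increase of this kind. Of 424 empty spots, 179 were measured within the 100-fold limit on at least 3 arrays. Their means had a median of 0.53, beside 0.11 over the genes and probes tested. Medians over the empty spots measured on each array were 0.76, 0.56, -0.27 and 0.84 on arrays 1 to 4, so the shift was not upward on array 3. By the same test 20.1% of the 179 were higher in apetala3, and 16.8% had a mean at or above that of NdhN. The empty spots also varied more between arrays, with a median SD of 0.67 against 0.26 for the genes and probes tested. Spot brightness was not in the values used here, so whether the probes of NdhN or of the other genes named were near background was not tested.

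PSBW encodes a small membrane subunit of photosystem II that helps hold the antenna to the core. Its log2 ratios were 0.88 and 0.74 on arrays 2 and 4, against -0.06 and -0.0035 on arrays 1 and 3. Arrays 2 and 4, with the mutant in channel 2, thus placed it high among all genes and probes, at percentiles 93.8 and 94.3. Arrays 1 and 3 placed it below their medians, at percentiles 33.8 and 39.7. The mean over the 4 arrays was 0.39 ± 0.20 (SE, limma adjusted p = 0.216), with a 95% interval from -0.11 to 0.89. These data therefore allow anything from a small decrease to a 1.85-fold increase of PSBW in apetala3.

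PSBY, whose precursor protein is cut into a pair of small photosystem II polypeptides, showed the same order of arrays. Its log2 ratios were 0.71 and 0.96 on arrays 2 and 4, against -0.14 and -0.13 on arrays 1 and 3. Within each orientation the values were close, and between the orientations they did not overlap. The mean was 0.35 ± 0.23 (SE, n = 4 arrays, limma adjusted p = 0.303), with a 95% interval from -0.21 to 0.91.

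PSAN encodes a photosystem I subunit on the lumen side of the thylakoid, near the docking site of plastocyanin. Its arrays ran the other way, with log2 ratios of -0.07 and 0.11 on arrays 2 and 4, against 0.52 and 0.64 on arrays 1 and 3. The mean was 0.30 ± 0.15 (SE, n = 4 arrays, limma adjusted p = 0.209), with a 95% interval from -0.08 to 0.67. The means of the 3 photosystem genes, at 0.39, 0.35 and 0.30, differed from each other by less than their standard errors.

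The difference between orientations was fitted for every gene, as the mean of the arrays with apetala3 in channel 2 minus that of the arrays with it in channel 1. For PSBW the means were 0.81 and -0.03, a difference of 0.84 with a 95% interval from 0.35 to 1.34. The PSBY means were 0.83 and -0.13, a difference of 0.97 with an interval from 0.44 to 1.49. For PSAN the means were 0.02 and 0.58, a difference of -0.56 with an interval from -1.07 to -0.05. For NdhN the means were 1.28 and 0.97, and the interval of the difference, from -0.89 to 1.501, included 0.

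None of these differences held after adjustment over all genes. Limma's adjusted p was 0.655 for PSBW and PSBY, 0.728 for PSAN and 0.900 for NdhN, and 0 of 25588 genes and probes passed, with 1735 (6.78%) at an unadjusted p under 0.05. PSBW, PSBY and PSAN were among those 1735, with unadjusted limma p values of 0.00799, 0.00611 and 0.0386. With 2 arrays against 2, orientations that do not overlap were common. Both arrays with the mutant in channel 2 were the higher pair for 20.3% of genes and probes measured on all 4, and the lower pair for 18.7%. A constant channel effect cancels from a mean over 2 arrays of each orientation. With such an effect in the fit, the means of PSBW, PSBY and PSAN stayed at 0.39, 0.35 and 0.30, and their limma adjusted p values were 0.0607, 0.0823 and 0.105.

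**Figure D2:**
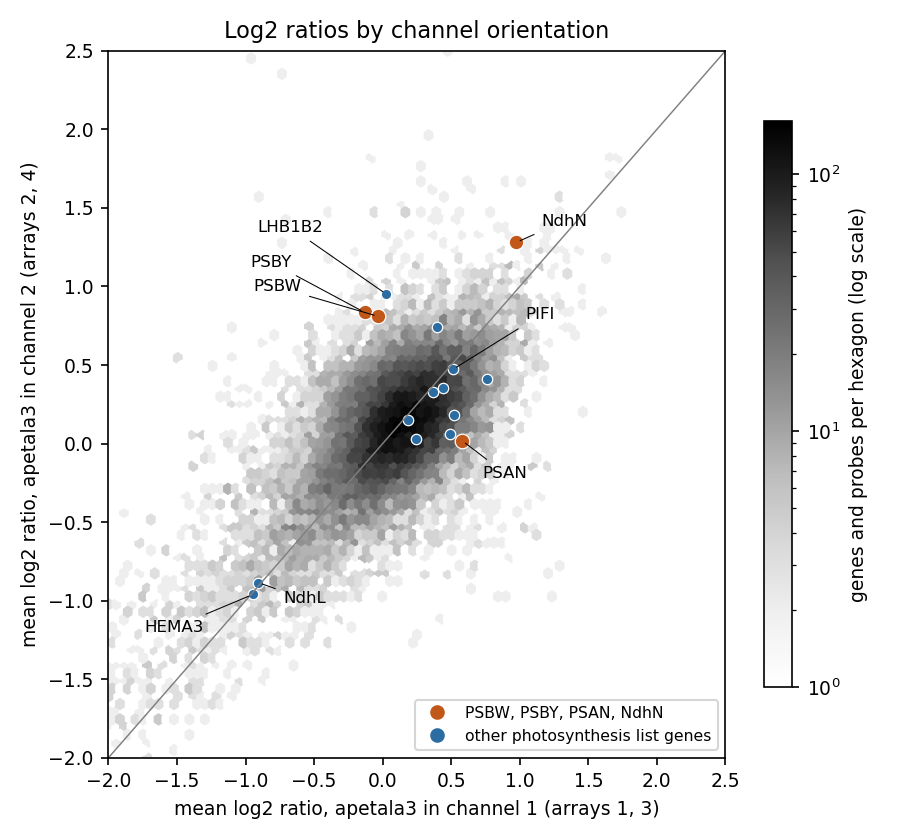
Mean log2 ratio of apetala3 over wild type with the mutant in channel 2 (vertical axis) against that with it in channel 1 (horizontal axis), for all genes and probes tested (grey hexagons, counts on a log scale), the 4 genes (orange) and other photosynthesis genes (blue). The line marks equal values, and 1149 genes and probes lie outside the axes. NdhN lies near the line at 1.28 and 0.97, PSBW and PSBY lie above it together with LHB1B2, and PSAN lies below it.

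The other photosynthesis genes were few on these arrays. Lists of photosystem, antenna, NDH, electron transport, Calvin cycle, chlorophyll and assembly genes, matched to reference symbols and synonyms, held 251 genes, of which 16 were tested through a probe of their own, the 4 genes included. Of the 16, 3 were higher, 2 were lower and 11 were not past the threshold, against the 8.43% higher and 10.1% lower of all genes and probes. Without array 1, 0 of them were called in either direction, and HEMA3 was not tested there. Calls over all genes and probes also fell without array 1, from 4737 to 1818, and higher calls from 2158 to 342. The median of the 16 was 0.35, beside 0.11 over everything tested. The lists were written with earlier results of these data known, so this difference is no separate support. Of the 16, 9 were above 0 on every array with a value, against 30.5% of genes and probes measured on all 4 arrays. Array medians over gene probes were themselves above 0, at 0.11, 0.13, 0.09 and 0.08 on arrays 1 to 4. Of the 24 genes for electron carriers and ATP synthase, 0 had a tested probe of their own.

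The few tested genes of the NDH list went in both directions. Of 42 genes on this list 6 were tested, and 2 were higher, 1 was lower and 3 were not past the threshold. Over all genes and probes 8.43% were higher and 10.1% lower. NdhN and PIFI were the 2 that rose. PIFI, which is needed for NDH-dependent electron flow after illumination, had 0.48 and 0.46 on arrays 2 and 4, and 0.54 and 0.48 on arrays 1 and 3. These values hardly varied, and the mean was 0.49 ± 0.09 (SE, n = 4 arrays, limma adjusted p = 0.0187), or 1.41-fold. The PIFI call was lost without any 1 of arrays 1, 2 or 3, with limma adjusted p values up to 0.0969, while its mean stayed between 0.48 and 0.50.

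NdhL, a membrane-bound subunit of the same complex, fell in apetala3. Its log2 ratios were -0.35 and -1.42 on arrays 2 and 4, and -1.21 and -0.60 on arrays 1 and 3. All 4 were below 0, with a mean of -0.90 ± 0.20 (SE, limma adjusted p = 0.0370). Without any 1 of arrays 1, 3 or 4 the call was lost, with means from -0.72 to -0.99 and limma adjusted p values up to 0.140. The 95% intervals of NdhN, from 0.59 to 1.66, and of NdhL, from -1.40 to -0.39, lay on opposite sides of 0.

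NdhS, the subunit that binds ferredoxin, had 0.47 and 0.18 on arrays 2 and 4, and 0.21 and 0.52 on arrays 1 and 3, with a mean of 0.34 ± 0.11 (SE, limma adjusted p = 0.0788). CRR21, a pentatricopeptide repeat protein that edits a chloroplast ndh transcript, had a mean of 0.59 ± 0.16 (limma adjusted p = 0.0595), and passed with array weights at 0.73 (limma adjusted p = 0.0343). CRR41, which assists assembly of the stromal arm, had a mean of 0.35 ± 0.14 (limma adjusted p = 0.128). All 3 were above 0 on every array, as were 30.5% of genes and probes measured on all 4. None of the 3 was past the threshold over all 4 arrays.

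**Figure D3:**
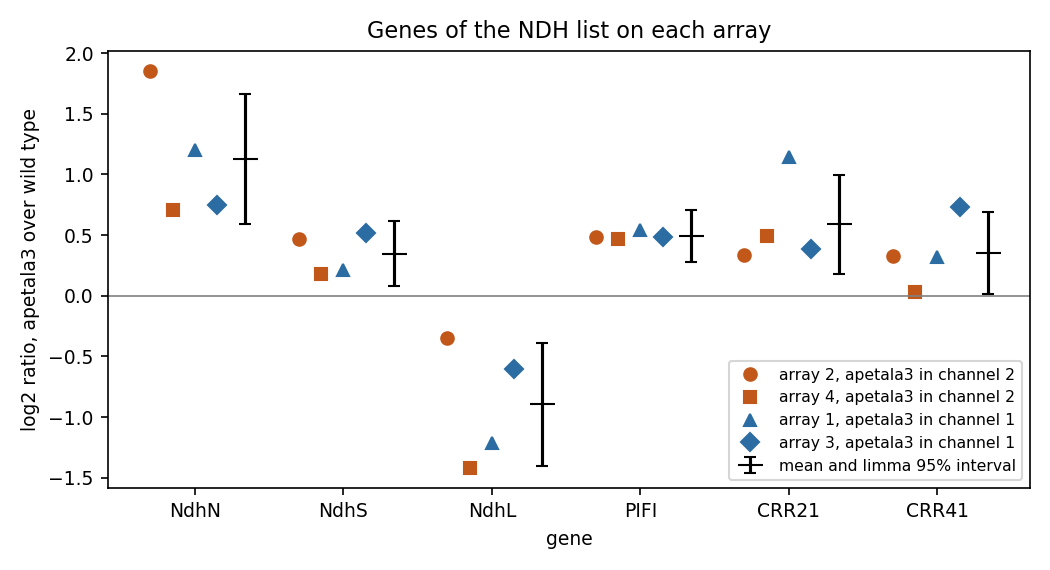
Log2 ratios of apetala3 over wild type (vertical axis) for the 6 tested genes of the NDH list, with 1 symbol per array, colours for the channel of the mutant RNA, and black bars for the mean with limma's 95% interval. NdhN is highest at a mean of 1.13, NdhL is below 0 on all 4 arrays, and the 4 values of PIFI lie between 0.46 and 0.54.

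Of 31 photosystem II, 18 photosystem I and 27 antenna genes on the lists, only 3, 1 and 1 were tested. None of those tested passed the threshold, against 18.5% of all genes and probes, and so few genes cannot be told apart from that share. The untested genes of these lists remain unknown. PSB27, a lumenal factor in photosystem II assembly and repair, was the remaining photosystem II gene, at 0.14 ± 0.12 (SE, n = 4 arrays, limma adjusted p = 0.452). LHB1B2, a chlorophyll a/b-binding protein of the main antenna, had 0.67 and 1.24 on arrays 2 and 4, against 0.09 and -0.04 on arrays 1 and 3. This is the order of arrays seen for PSBW and PSBY, and the mean was 0.49 ± 0.23 (SE, limma adjusted p = 0.187). LHB1B2 has close relatives in the genome, and whether its probe also binds their transcripts was not tested. LPA19, an assembly factor for photosystem II, was at 0.17 ± 0.09 (limma adjusted p = 0.232).

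Among enzymes, SBPASE of the Calvin cycle rose. It had 0.34 and 0.36 on arrays 2 and 4, and 0.46 and 0.42 on arrays 1 and 3, with a mean of 0.40 ± 0.09 (SE, n = 4 arrays, limma adjusted p = 0.0352). That call was lost without any 1 of the 4 arrays, with means from 0.38 to 0.42 and limma adjusted p values up to 0.148, and also when arrays were centred on their medians, at 0.30 (limma adjusted p = 0.0821). PRK, another Calvin cycle enzyme, had a mean of 0.57 ± 0.15 (limma adjusted p = 0.0539), and passed in 3 of 13 alternatives. These were without array 3, at 0.70 (limma adjusted p = 0.0485), with array weights, at 0.59 (limma adjusted p = 0.0310), and over genes measured on all 4 arrays, at 0.57 (limma adjusted p = 0.0483). HEMA3, a glutamyl-tRNA reductase at the start of tetrapyrrole synthesis, fell by 0.96 over the 3 arrays that measured it (SE 0.17, limma adjusted p = 0.0254), and its array 3 value stood at the lower limit of the ratios. With that value kept its mean was -2.38 and no longer past the threshold (limma adjusted p = 0.221). CHLM, a methyltransferase of chlorophyll synthesis, was at 0.28 ± 0.13 (limma adjusted p = 0.176).

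**Figure D4:**
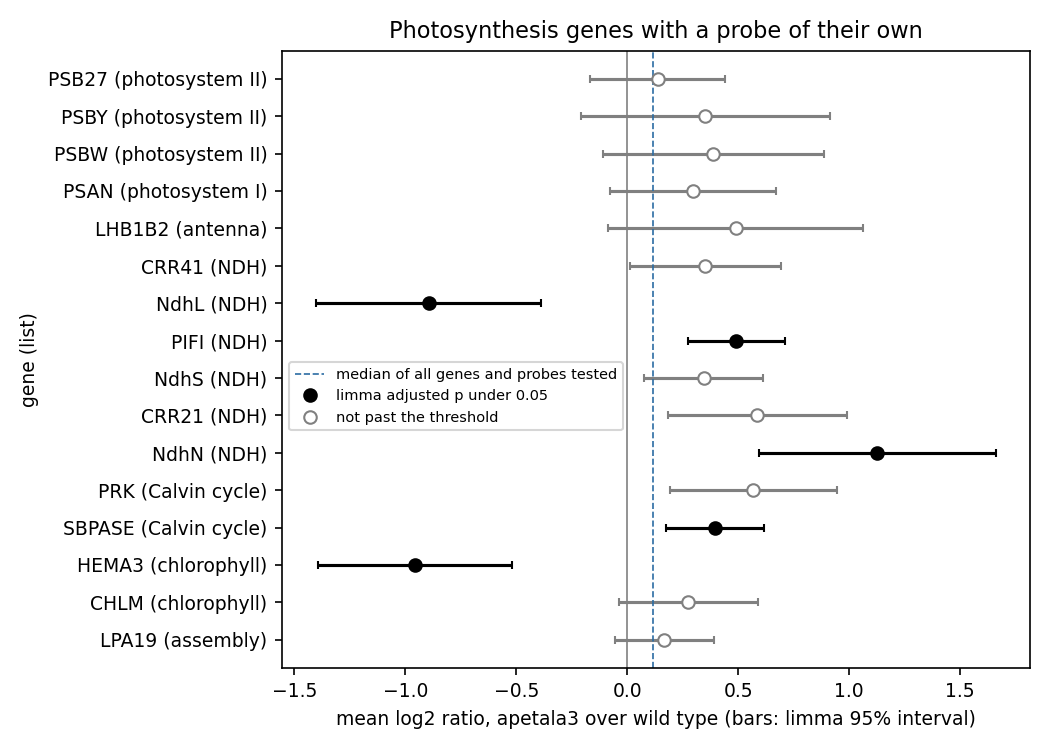
Mean log2 ratio of apetala3 over wild type (horizontal axis) with limma's 95% interval for the 16 tested photosynthesis genes, each with its list in brackets, filled where the limma adjusted p is under 0.05. The dashed line is the median of all genes and probes tested, 0.11. NdhN, PIFI and SBPASE lie above 0 and NdhL and HEMA3 below it among the filled points, and the photosystem genes lie between 0.14 and 0.39.

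A further 9 probes each listed several genes, all on these lists. None was past limma's threshold, against 18.5% of all genes and probes, a share that 9 probes cannot be told apart from. Means ran from 0.00 to 0.43 with a median of 0.16, and the highest, an antenna probe, had a limma adjusted p of 0.0521. Of the 9, 4 had a higher mean with apetala3 in channel 2 than in channel 1. No gene is named from these probes.

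Of the floral cell type markers tested, some differed between the genotypes and some did not. Over all genes and probes tested, 8.43% were higher and 10.1% lower. Besides the tapetum genes, TUA1, a pollen alpha-tubulin and the 1 tested gene of 12 pollen markers, was at -0.44 (limma adjusted p = 0.0408). It did not pass when array 1, 2 or 3 was left out. Of 13 carpel and ovule markers 2 were tested, with CES of the transmitting tract at 1.85 (limma adjusted p = 0.00117) and INO of the outer ovule integument at 0.20 (limma adjusted p = 0.243). Of 5 petal and stamen identity genes and 11 guard cell and epidermis genes, 0 were tested through a probe of their own. The part of organ makeup in the NdhN, PIFI, NdhL and SBPASE values was not tested.

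Genes with the most similar profile over the 4 arrays were sought among 509 genes that have a symbol of their own and a value on every array. Likeness was the Euclidean distance between log2 ratios, and with 4 arrays it is a description only. Nearest to PSBW were JKD, a zinc finger protein, at a distance of 0.21 and FY, an RNA 3′-end processing factor, at 0.32. For PSBY they were LHB1B2, at 0.37, and JKD, at 0.37. The genes nearest to PSAN were AGL16, a MADS-box gene, at 0.16 and CHLM at 0.22, and 31 genes lay within 0.5 of it. Those nearest to NdhN were CYP71B26, a cytochrome P450, at 0.45 and UGT73C1, a glycosyltransferase, at 0.47, and no others lay within 0.5. Both were higher in apetala3, at 1.21 and 1.20 (limma adjusted p = 0.00623 and 0.00507). Their direction follows from their choice by closeness to NdhN and is no separate result.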

How the data were processed

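For each array the authors deposited log2 ratios between its channels, normalized as an earlier publication describes, per the labels. The sources used here do not give the scanner, the background correction or the normalization method. The log2 scale was read from the values, which stop at 100-fold on both sides. Values beyond an absolute log2 ratio of 6.6438 were treated as not measured. Array medians over gene probes were, before any turning, -0.11, 0.13, -0.09 and 0.08, and their centring stays unknown. Arrays 1 and 3 were multiplied by -1.

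Of 26933 spots, 26474 were gene probes. The platform annotation gave 1 gene for 5784, several for 7497 and listed none for 13193, and 5756 of the first matched the TAIR10.1 reference table by gene ID. Probes of 1 gene were averaged on each array. Whatever had values on at least 3 arrays was tested with limma 3.58.1 under R 4.3.3, using lmFit and eBayes with an intercept alone and Benjamini-Hochberg adjusted p-values. The orientation difference was a second fit with orientation as a term. The procedure was tested on simulated data.

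The members and lists were chosen with earlier results of these data known. The rule named the 4 genes, every tested gene of a photosynthesis list with 5 or fewer tested, otherwise its 3 largest absolute means, and the 2 nearest genes by profile. PIFI, NdhS and CRR41 fall outside it and were added after their values were seen, to complete the NDH list, as were the floral markers. Alternatives varied the arrays, centring, channel effect, weights, limit values, filter, test, unit and sign.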

Additional observations from a re-analysis of the deposited data

Results flagged for a closer look

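In 1 of 31 sets of 4 array values examined, a single array stood far from the rest, and chance alone would give about 1.55 such sets. PSB27 had -0.22 on array 4, against 0.23 to 0.27 on the other arrays.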

How the results depend on the processing

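Both NdhN probes were above 0 on every array, so no choice of arrays, weights or probe could change the sign of their mean. The alternatives also share arrays and are not independent of each other. The mean of NdhN kept its sign in all 15 alternatives other than turning every ratio, where it was -1.13, and passed the threshold in 10 of them. It did not pass without array 1 (range without 1 array 0.89 to 1.27), in a plain one-sample test (1.13, adjusted p = 0.116), on the arrays with apetala3 in channel 1 (0.97, limma adjusted p = 0.0592) or in channel 2 (1.28, limma adjusted p = 0.185), or for the second probe alone (1.52). PSBW, PSBY and PSAN passed limma's threshold in none of 14 alternatives each, and for PSBW and PSBY the arrays with apetala3 in channel 1 had means below 0, at -0.03 and -0.13. Their smallest limma adjusted p values were 0.0607, 0.0823 and 0.0923. Their orientation differences kept their signs in all 5 alternatives. That had to be so, because their orientations did not overlap and the plain test uses the same difference. The orientation difference of NdhN ranged from -0.27 to 0.88. Over all genes and probes, without 1 array in turn 1818 to 5028 were called, 342 to 2412 higher and 1476 to 2616 lower. A plain test called 1265 (502 higher, 763 lower), channel 1 arrays 2081 (447 and 1634) and channel 2 arrays 873 (78 and 795). Higher calls numbered 1065 after centring (26.8% of calls, against 45.6%), 1430 with a channel effect, 3751 with array weights and 1430 with limit values kept. Of the 16 photosynthesis genes, without 1 array 0 to 2 were higher and 0 to 1 lower. HEMA3 was measured on 3 arrays only. It was therefore not tested without array 1, 2 or 4, on channel 1 arrays alone, or over genes measured on all 4 arrays. With array weights 5 were higher. The lower count was 0 with a channel effect, limit values kept or a plain test and 1 over genes measured on all 4 arrays, and neither orientation alone called any (0 higher, 0 lower). Apart from HEMA3 leaving the tested set, the cause of these shifts was not tested. Each ratio is already a paired comparison within an array, so no further block was fitted. Over 4 arrays, no exact sign-flip test can go below 0.125.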
